A study of Drosophila melanogaster with 6 samples.

Results

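The cytochrome P450 genes of fly midgut progenitor cells were followed in a comparison of young and old animals. Members were all rows of the authors' deposited table that name a single gene and whose name has the form Cyp, a family number, a subfamily letter and a gene number. This gave 43 of 8164 gene rows. Cyclophilin genes such as Cyp1 do not have that form and were left out. The current annotation holds 85 gene names of the same form, and 42 of the 43 rows matched one of them through their transcript identifiers. The exception was Cyp9f3Psi. The P450 genes without a row of their own were not analysed here, except where a row shared with other genes is named.

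The samples were GFP-positive cells sorted from midguts of yw flies that carried the driver esg-GAL4 NP5130 with the reporters UAS-GFP and UAS-GFPnlacZ, the line being marked N 1099. In this line escargot-GAL4 drives GFP in the stem cells of the gut and in the progenitors that they produce, so the sorted population is enriched for stem cells rather than pure. The young group had 3 samples from flies of 6 to 8 days and the old group 3 samples from flies of 59 to 65 days, all of this genotype. The labels do not say whether samples of a group came from separate cultures, so the p-values measure only the spread between these samples, which may be technical. All values below come from the authors' deposited table, which gives for each row a log2 fold change between the ages, a mean abundance in log2 CPM (read counts scaled to library size, not corrected for gene length), and p-values before and after adjustment. The sources used here do not state which age is the numerator, so a fold change has a sign but no age direction. The 12 library columns have names that match no sample label and were not used. Values per sample, standard errors and the depth of each library are therefore not given, and the weight of any 1 library in a value was not tested.

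P450 enzymes hold a haem group with which they insert oxygen into their substrates. Those of the endoplasmic reticulum receive electrons from NADPH-cytochrome P450 reductase, and those of mitochondria from a ferredoxin. Insect P450s fall into 4 clans. The CYP3 clan holds many enzymes that act on toxins and insecticides, the CYP4 clan is known for the oxidation of fatty acids and related lipids, and the CYP2 and mitochondrial clans include the enzymes of ecdysteroid hormone synthesis. The midgut is, with the Malpighian tubules and fat body, a main site of detoxification in flies. In bulk RNA from sorted cells, a change in the share of a cell type and a change in RNA per cell cannot be told apart.

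Of the 43 P450 rows in the authors' deposited table, 5 had an adjusted p under 0.05 and are referred to as called. Cyp6d2, Cyp4p3, Cyp4p1 and Cyp12a5 were positive, and Cyp311a1 was negative. Over all rows, 7.10% were called, 5.17% as positive and 1.94% as negative, against 11.6% of the P450 rows. Whether the P450 share differs from that of all rows was not tested. Of the remaining P450 rows, 11 had an unadjusted p under 0.05 and 27 did not. Of the 43 members, 38 lay within 2-fold of no difference, as did 7485 of all 8164 rows. The median size of the log2 fold change, whatever its sign, was 0.46 over the P450 rows and 0.34 over all rows. Whether the spreads differ was not tested. Among rows of at least 5 CPM, with p-values adjusted over those rows only, 1 of 24 P450 rows was called and 3.78% of all rows were.

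**Figure D1:**
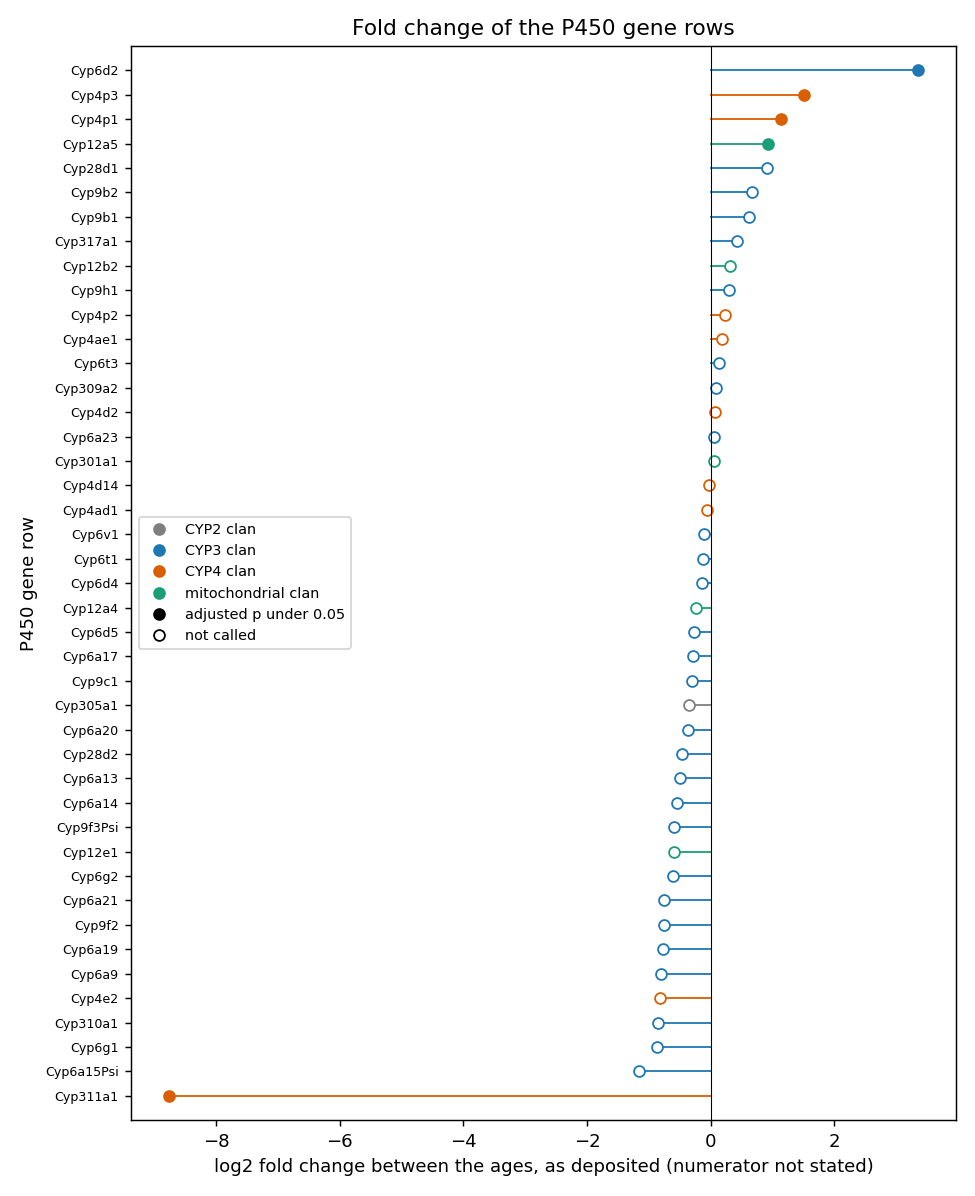
Log2 fold change between the ages (horizontal axis) of each of the 43 P450 gene rows in the authors' deposited table, coloured by clan, with filled points for an adjusted p under 0.05. Cyp311a1 at -8.77 and Cyp6d2 at 3.36 stand apart from the other members, which lie between -1.16 and 1.51.

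Cyp311a1 (FBgn0030367, dm3 X from 11923317 to 11925498), a member of the CYP4 clan, had the value -8.77 on the log2 scale in the authors' deposited table (adjusted p = 5.42e-37, authors' test). This was the lowest fold change of all 8164 rows and the 3rd smallest p-value. Its mean was only 3.93 CPM. If that mean is taken as the plain mean of both ages, the fold change corresponds to about 7.83 CPM in one age and 0.0180 CPM in the other. At a level so near 0 the size of a fitted fold change depends on how the fit treats zero counts, so only the sign and the low level in one age are read from it. Whether all 3 libraries of the higher age carry the signal was not tested.

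Cyp6d2 (FBgn0034756, dm3 2R from 18540078 to 18542032) belongs to the CYP3 clan and has been linked in flies to tolerance of the toxin camptothecin. The authors' deposited table gave it a log2 fold change of 3.36, a mean of 2.97 CPM and an adjusted p of 1.33e-13. This was the 16th smallest p-value of the table. Taken as above, the values correspond to about 5.41 CPM in one age and 0.527 CPM in the other. The other genes of the Cyp6d subfamily with a row were more abundant per length of transcript and were not called. Cyp6d4 had -0.13 at 22.5 CPM and Cyp6d5 -0.27 at 40.2 CPM in the authors' deposited table (adjusted p = 0.893 and 0.731).

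Cyp4p1, Cyp4p2 and Cyp4p3 are CYP4 clan genes that lie side by side on dm3 2R, from 5125035 to 5131915. All had a positive fold change and 2 were called. In the authors' deposited table Cyp4p1 (FBgn0015037) had 1.14 at 22.8 CPM (adjusted p = 0.00860), which is a 2.21-fold difference. Cyp4p3 (FBgn0033397) had 1.51 at only 1.23 CPM in the authors' deposited table (adjusted p = 0.00521). Cyp4p2, the most abundant of the trio at 72.8 CPM, had 0.24 in the authors' deposited table (adjusted p = 0.742). The trio lies wholly inside the span of hig, a gene on the opposite strand, and the library kit does not mark strand. The authors' deposited table gave hig 0.47 on the log2 scale (adjusted p = 0.435). Its mean of 101.5 CPM stood beside a sum of 96.8 CPM over the trio, so the same reads may be counted in both.

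Cyp12a5 (FBgn0038680, dm3 3R from 14958174 to 14960429), a member of the mitochondrial clan, had 0.93 at 7.47 CPM in the authors' deposited table (adjusted p = 0.0405). It was the called member closest to the threshold, and its adjusted p was 0.0652 when p-values were adjusted over rows of at least 5 CPM only. Its neighbour Cyp12a4, a gene whose high expression confers resistance to the insecticide lufenuron, was more abundant per length of transcript and had -0.24 at 31.1 CPM in the authors' deposited table (adjusted p = 0.819). Whether the neighbours differ from each other was not tested. The row just outside the threshold was the pseudogene Cyp6a15Psi, with -1.16 at 2.16 CPM in the authors' deposited table (adjusted p = 0.0511).

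**Figure D2:**
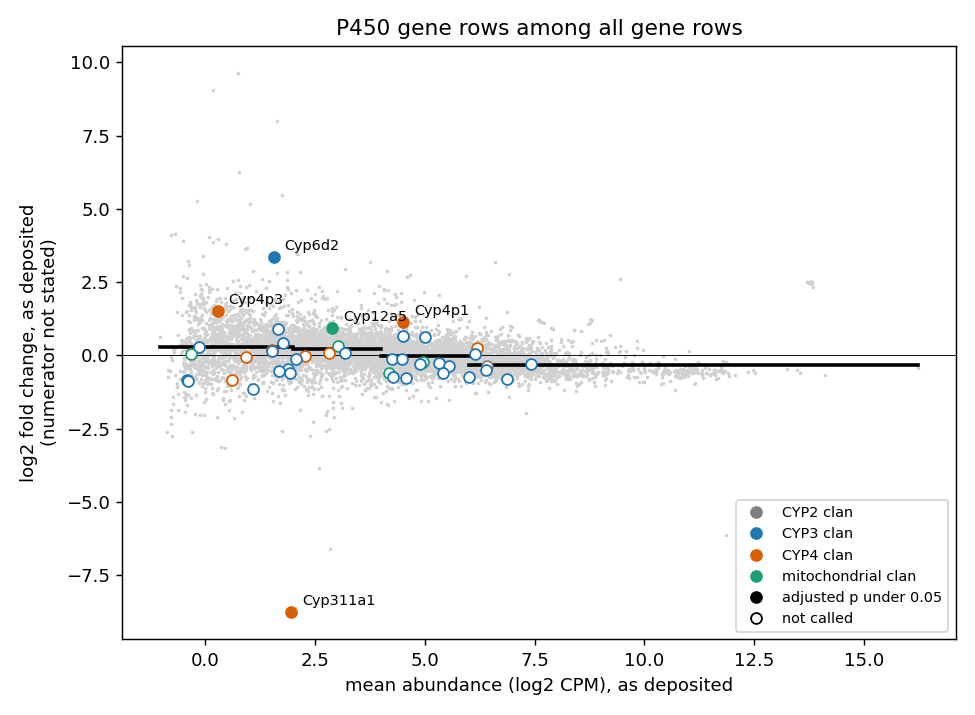
Log2 fold change (vertical axis) against mean abundance in log2 CPM (horizontal axis) for all 8164 rows of the authors' deposited table (grey) and the 43 P450 rows (coloured by clan, filled where called). Black lines mark the median of all rows in 4 bands of abundance, which goes from 0.30 at the lowest to -0.32 at the highest, and 3 of the 5 called P450 rows lie under 5 CPM.

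Negative signs outnumbered positive ones among the P450 rows. The median was -0.13 on the log2 scale over the 43 P450 rows and 0.05 over all rows of the authors' deposited table, and the quartiles of the P450 rows were -0.59 and 0.21. A negative sign was found in 26 P450 rows, or 60.5%, against 46.2% of all rows. Fold change moved with abundance in the table as a whole, so the same was read within levels of abundance. Among rows of at least 4 log2 CPM the median was -0.29 for 20 P450 rows and -0.13 for all rows, and among rows under 4 log2 CPM it was 0.06 for 23 P450 rows and 0.23 for all rows. At the highest levels the share went the other way. Of the 7 P450 rows at 6 log2 CPM or more, 71.4% had a negative sign against 77.5% of all rows there, and the medians were -0.35 and -0.32. Unadjusted p-values under 0.05 were found in 16 of the 43 P450 rows, or 37.2%, against 19.3% of all rows. Of these 16, 7 were positive and 9 negative. Over all rows, 11.8% had such a p with a positive and 7.48% with a negative sign. P450 genes lie in groups and resemble each other in sequence, so these rows are not independent, and no test was made over them.

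The CYP3 clan held 28 of the 43 rows, with 1 positive call and 19 negative signs, and a median of -0.29. Most of these were Cyp6 genes, of which 14 of 17 had a negative sign. Over all rows 46.2% had a negative sign, and 62.4% of those at 4 log2 CPM or more. Calls made up 7.10% of all rows, and 7.48% had a negative sign with an unadjusted p under 0.05. In the Cyp6a subfamily, 8 of 9 rows were negative, none was called by the authors' test and 4 had an unadjusted p under 0.05, all negative. Cyp6a9, the most abundant of them, had -0.80 at 117.1 CPM in the authors' deposited table (adjusted p = 0.131). Cyp6a19 had -0.76 at 23.8 CPM and Cyp6a21 -0.75 at 19.5 CPM in the authors' deposited table (adjusted p = 0.120 and 0.187). Cyp6a20, known from work on aggression in male flies, had -0.36 in the authors' deposited table (adjusted p = 0.609). Cyp6a17, which is needed for normal temperature preference in flies, had -0.29 in the authors' deposited table (adjusted p = 0.725). Cyp6a13 and Cyp6a14 had -0.49 and -0.55 in the authors' deposited table (adjusted p = 0.447 and 0.423), and Cyp6a23 was the exception at 0.06 (adjusted p = 0.959).

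Among the other CYP3 clan genes, Cyp6g1, whose high expression gives resistance to DDT and other insecticides, had the lowest level per length of the members. The authors' deposited table gave it -0.87 at 0.769 CPM (adjusted p = 0.205). Cyp6g2, which can also confer resistance when overexpressed, had -0.61 at 3.84 CPM in the authors' deposited table (adjusted p = 0.306). Cyp6t3, known for a part in ecdysone synthesis in the larval prothoracic gland, had 0.14 in the authors' deposited table (adjusted p = 0.847). Cyp6t1 had -0.12 and Cyp6v1 -0.11 in the authors' deposited table, and neither was called. The Cyp9 genes went both ways. Cyp9b1 and Cyp9b2 had 0.63 and 0.67 at 32.1 and 22.6 CPM in the authors' deposited table (adjusted p = 0.217 and 0.155). Cyp9f2 had -0.75 at 64.4 CPM and Cyp9f3Psi -0.59 at 42.9 CPM in the authors' deposited table (adjusted p = 0.152 and 0.335). Cyp9c1 and Cyp9h1 had -0.30 and 0.30 in the authors' deposited table and were not called.

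The Cyp28 pair of this clan differed in sign. Cyp28d1, linked to nicotine resistance in fly larvae, had 0.91 at 3.16 CPM in the authors' deposited table (adjusted p = 0.143). Cyp28d2 beside it had -0.46 at 3.72 CPM in the authors' deposited table (adjusted p = 0.487). The last 3 members of the clan were not called either. Cyp310a1 had -0.84 at 0.762 CPM (adjusted p = 0.221), Cyp317a1 had 0.42 and Cyp309a2 0.09 in the authors' deposited table.

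Outside the CYP3 clan, the CYP4 clan held 9 rows with 2 positive calls and 1 negative call. The median level of the CYP4 clan was 3.93 CPM, and calls were more frequent at low abundance in the whole table. They made up 7.10% of all rows, 10.5% of all rows under 4 log2 CPM and 3.58% of those at 4 log2 CPM or more. Whether the share of calls differs between clans was not tested. Apart from Cyp311a1 and the Cyp4p trio, the members of the CYP4 clan had means from 1.54 to 7.10 CPM. Cyp4e2 had -0.82 in the authors' deposited table (adjusted p = 0.218). Cyp4ae1, Cyp4d2, Cyp4d14 and Cyp4ad1 had 0.18, 0.07, -0.03 and -0.06 in the authors' deposited table (adjusted p from 0.762 to 0.948). The mitochondrial clan held 5 rows with the call of Cyp12a5 alone. Cyp12e1 had -0.59 at 18.1 CPM and Cyp12b2 0.32 at 8.20 CPM in the authors' deposited table (adjusted p = 0.281 and 0.663). Cyp301a1, known for its part in cuticle formation, had 0.06 at 0.809 CPM in the authors' deposited table (adjusted p = 1). The CYP2 clan had a single row, Cyp305a1, with -0.35 at 85.0 CPM in the authors' deposited table (adjusted p = 0.605).

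**Figure D3:**
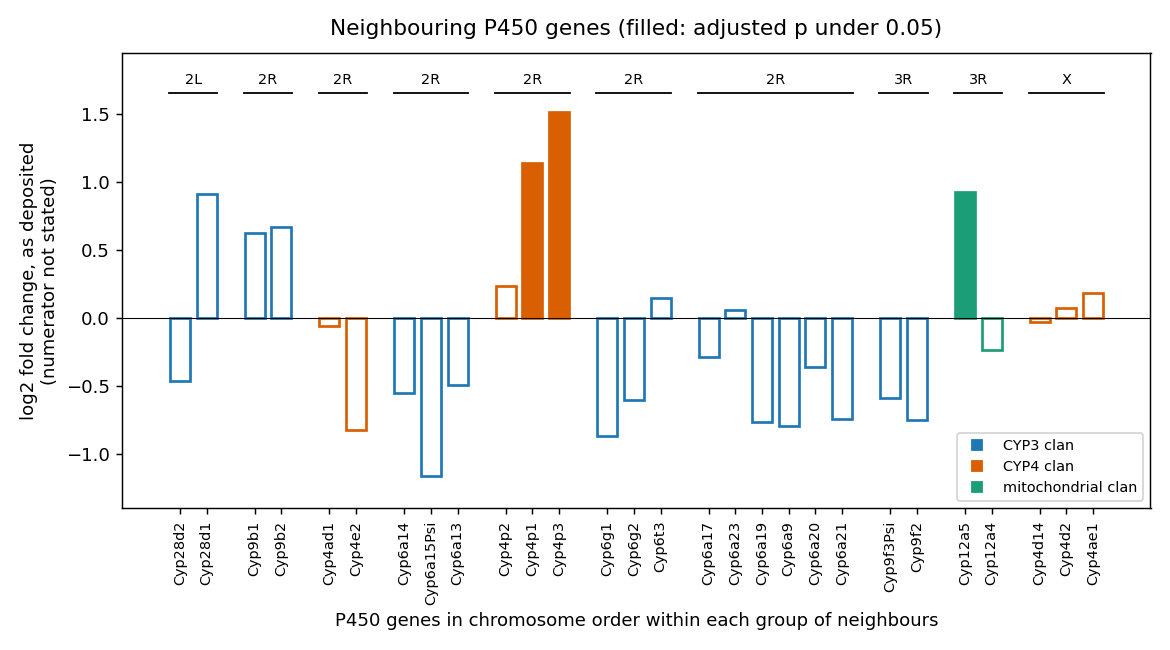
Log2 fold change in the authors' deposited table of the 28 P450 rows that have another P450 row within 10 kb, in chromosome order within each of 10 groups, with the arm above and filled bars for an adjusted p under 0.05. Of the groups, 5 have a single sign, and Cyp12a5 with Cyp12a4 and Cyp28d2 with Cyp28d1 show both signs within a pair.

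P450 genes arose largely by tandem duplication, and 25 of the 43 rows lay on dm3 2R, which held 20.5% of all rows. With a largest distance of 10 kb between members, 28 rows fell into 10 groups of neighbours and 15 stood alone. In 5 groups every row had the same sign and in 5 both signs occurred. Whether neighbours share a sign more often than other rows was not tested. The largest group, 6 genes from Cyp6a17 to Cyp6a21 within 13.0 kb of 2R (10761459 to 10774456), had 5 negative rows and 1 positive. Cyp6a14, Cyp6a15Psi and Cyp6a13, within 7.85 kb of 2R, were all negative. Cyp9b1 and Cyp9b2 had nearly the same fold change, 0.04 apart on the log2 scale, whereas Cyp28d1 and Cyp28d2 lay 1.38 apart. The sources used here do not say how reads matching several copies were counted, so values of near-identical neighbours may not be independent.

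**Figure D4:**
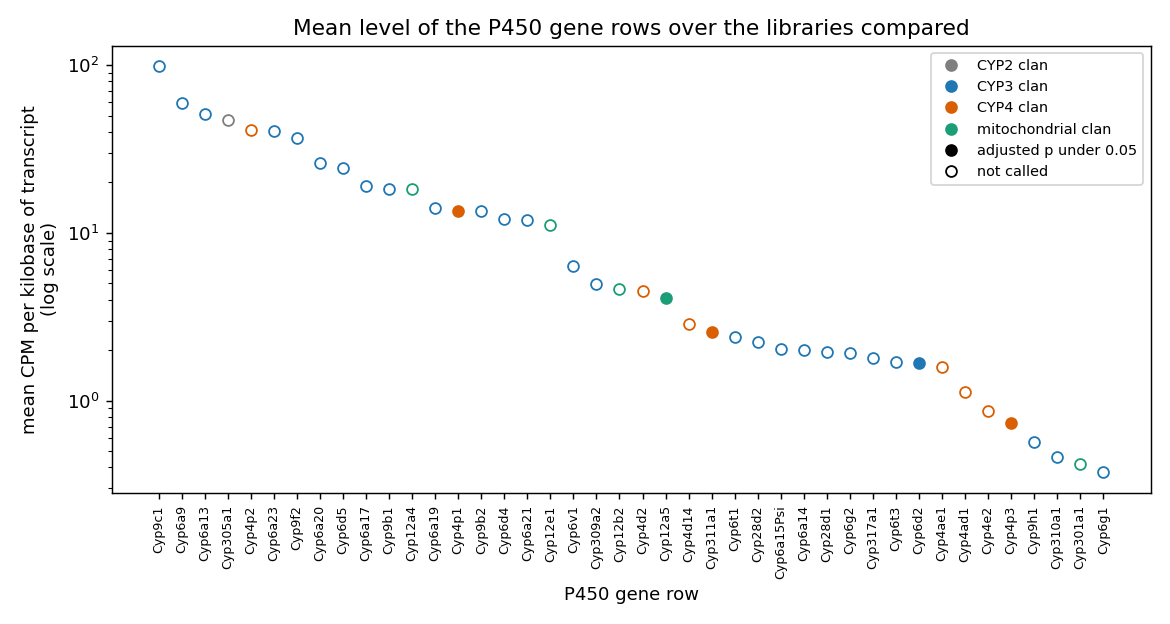
Mean level of the P450 rows over the libraries compared, as CPM per kilobase of transcript on a log scale, in falling order and coloured by clan, with filled points for called rows. Cyp9c1 is highest at 98.6 and Cyp6g1 lowest at 0.373, and no called row is among the 10 highest.

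Levels were compared between genes only after division by the length of the longest listed transcript in the current annotation, available for 42 of the 43 rows. Cyp9c1 was highest at 98.6 CPM per kb, followed by Cyp6a9 at 59.6, Cyp6a13 at 51.5, Cyp305a1 at 47.2 and Cyp4p2 at 41.0 CPM per kb. Cyp6a23, Cyp9f2, Cyp6a20, Cyp6d5 and Cyp6a17 came next, at 40.4 down to 19.1 CPM per kb. Of these 10 highest, 8 belonged to the CYP3 clan and 8 had a negative fold change, where 77.5% of all rows at 6 log2 CPM or more and 51.9% of those at 4 to 6 had one. The spread between libraries is not given, so the order of close neighbours in this list is not fixed. The called rows were of middle or low level per length, with Cyp4p1 at 13.6, Cyp12a5 at 4.10, Cyp311a1 at 2.58, Cyp6d2 at 1.69 and Cyp4p3 at 0.738 CPM per kb.

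Several of these levels cannot be assigned to the P450 gene alone, because 13 of the 43 spans overlap that of another row and 7 lie wholly inside one. The row of Cyp9c1 lay inside that of CG13594 with a small nucleolar RNA. Both rows had -0.30 in the authors' deposited table, at 171.9 and 173.1 CPM. Cyp9f3Psi, at 42.9 CPM, lay inside a row of 63.0 CPM that names CG34402 and CG33098. Cyp6d5, at 40.2 CPM, lay inside rdx at 145.4 CPM. Cyp6a19 and Cyp6a9 share 397 bases and had similar fold changes. Of the called rows, Cyp6d2, Cyp12a5 and Cyp311a1 overlapped no other row.

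The authors' deposited table names 4 further P450 genes only in rows shared with other genes. None of these rows was called, while 2 had an unadjusted p under 0.05. Of all rows, 7.10% were called and 19.3% had such a p, so counts over 4 rows are no result about them. The row of Cyp4g1, the oenocyte enzyme of hydrocarbon synthesis, with CG32816 and pcl had -0.70 at 2033.9 CPM in the authors' deposited table (adjusted p = 0.219). Shared rows were left out of the ranking of levels above, and the part of Cyp4g1 in that level is not known. The rows of Cyp4aa1, Cyp6u1 and Cyp6a2, the last of them linked to DDT resistance, had -0.99, -0.48 and 0.01 in the authors' deposited table (adjusted p = 0.0725, 0.365 and 0.989). Rows were found for 3 P450 genes of ecdysteroid synthesis that carry other names, too few to read a count of calls. Of these, spok (dm3 3RHet from 2127184 to 2158789) was called positive. It had 1.75 on the log2 scale at 2.79 CPM in the authors' deposited table (adjusted p = 0.00013). Its relative spo had 0.09 at 1.14 CPM and dib, a later enzyme of the same pathway, had -0.34 at 1.88 CPM in the authors' deposited table (adjusted p = 0.994 and 0.665).

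Partners of the P450 enzymes were read from lists of gene names. Both electron donors with a row were uncalled. Cpr, the reductase that serves the P450s of the endoplasmic reticulum, had 0.43 at 104.5 CPM in the authors' deposited table (adjusted p = 0.465), and the ferredoxin gene Fdxh had -0.13 (adjusted p = 0.805). Of 8 genes of haem synthesis, 7 were of positive sign and 1 was called, and the list's median was 0.52. Over all rows 4395 of 8164 were of positive sign and 7.10% were called, so 1 call is no result about this list. The call was CG1885, a uroporphyrinogen III synthase gene, with 1.45 at only 1.15 CPM in the authors' deposited table (adjusted p = 0.0101). Pbgs, a gene of an earlier step, had 0.89 in the authors' deposited table (adjusted p = 0.0949). None of 6 regulators of the response to xenobiotics and hormones was called by the authors' test, and 0 had an unadjusted p under 0.05. Among them Keap1, the inhibitor of the antioxidant factor CncC, had 0.11 and the xenobiotic receptor gene Hr96 -0.01 in the authors' deposited table.

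Enzymes that act on the products of P450s were read the same way. Of 16 glutathione transferase genes, 1 was called, or 6.25% against 7.10% of all rows. A positive sign was found in 12 of them, and the median was 0.30. All rows had a positive sign in 4395 of 8164 and a median of 0.05. Rows under 4 log2 CPM had a positive sign in 2892 of 4170 and a median of 0.23. Whether the list differs from these was not tested. The call was GstE10, with 2.22 at 0.962 CPM in the authors' deposited table (adjusted p = 5.00e-05). Of 10 UDP-glycosyltransferase genes none was called by the authors' test, 1 had an unadjusted p under 0.05, and the median was 0.01. The epoxide hydrolase genes Jheh1, Jheh2 and Jheh3 had -0.70, -0.56 and 0.53 in the authors' deposited table and were not called (adjusted p from 0.213 to 0.380), although Jheh1 had an unadjusted p of 0.0348.

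Cell type markers were read from the same table. Over all rows 7.10% were called, 19.3% had an unadjusted p under 0.05 and 4395 of 8164 had a positive sign. At that share of calls, 0 calls among 4 markers is no result about a cell type. The sorted population carried its driver gene, with esg at 834.7 CPM and the progenitor gene Sox21a at 188.1 CPM, and 0 of 4 progenitor markers were called by the authors' test, none with an unadjusted p under 0.05. Enterocyte genes were present too, with Myo31DF at 494.8 CPM, and 0 of 4 were called by the authors' test, while nub had an unadjusted p of 0.0376. Of 5 enteroendocrine markers, with means from 26.8 to 122.1 CPM, all had a positive sign in the authors' deposited table and 3 were called, namely Ast-C at 2.78, amon at 1.91 and npf at 0.87. Of 3 muscle markers, 2 were called positive in the authors' deposited table, namely up with 2.30 at 2.61 CPM and sls with 2.51 at 14122 CPM, while Mlc2 had 0.09 at 1.38 CPM. The level of sls was far above those of up, Mlc2 and esg, so no amount of muscle is read from it. The single fat body marker with a row, Fbp1, was called negative in the authors' deposited table, with -0.94 at 2.53 CPM. For 5 names of Malpighian tubule markers and 3 of oenocyte markers no row was matched, so no value is given. The part of these cell types in the P450 calls was not tested.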

How the data were processed

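RNA was measured in 3 young and 3 old samples by sequencing of TruSeq libraries, per the labels' protocols. Tools listed in the submitters' processing notes are edgeR, TopHat 1.2.0, Bowtie and FastQC, and the listed build is dm3. Per the file headers, the authors deposited fold changes and mean abundances on the log2 scale, p-values and adjusted p-values (FDR), and the table's name calls the comparison an exact test. The handling of multi-mapped reads, filtering and normalization was not given in the sources used here. None of the 12 library columns matches a sample label and all were left out, so the planned fits on counts were not run, nor was protein identity computed. Depth is unknown here and no interval is given.

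Nothing was refitted. A call is a deposited adjusted p under 0.05. Adjustment was repeated by the Benjamini-Hochberg method, tested on simulated data, for alternatives only. Deposited starts count from 0, since 539 of 4737 single-transcript spans equalled the annotated length read so and 138 read from 1. They are printed counting from 1. Names, lengths and gene identifiers came from Ensembl release 115, whose coordinates were not used. The rule for named genes took members by call, p-value, level or known role, and of other lists the called genes and electron donors. The remaining members and uncalled genes of other lists named in the text were chosen after their values were seen. Members and lists were chosen with earlier results of these data known. Alternatives were other thresholds, abundance limits and choices of rows. Python 3.11.15 with numpy 2.4.6, pandas 2.3.3 and matplotlib 3.10.9 was used.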

Additional observations from a re-analysis of the deposited data

How the results depend on the processing

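No paired analysis was possible because the library columns match no sample label and so carry no replicate number that can be tied to a sample. Since the library columns were not used, no replicate was left out and no other test, normalization or count filter was run. With only rows of at least 5 CPM, and p-values adjusted over those 6033 rows, 1 of the 24 P450 rows left was called, Cyp4p1, so 1 positive and 0 negative calls stood, and 228 of all rows (3.78%) were called. At that level the P450 share of calls was near that of all rows, but it rests on 1 call. Of these 24 rows, 4 positive and 4 negative had an unadjusted p under 0.05 in the authors' deposited table. The share of all rows of at least 5 CPM with such a p is not given here. At the higher limit of 4 log2 CPM, such a p was found in 35.0% of P450 rows and 12.9% of all rows. With p-values adjusted over rows of at least 5 CPM, Cyp12a5 had an adjusted p of 0.0652. Cyp6d2, Cyp4p3 and Cyp311a1 lay under 5 CPM. Without rows that overlap another row, 3 calls and 2 positive calls stood, because Cyp4p1 and Cyp4p3 lie inside hig. An adjusted p under 0.1 gave 2 negative calls, adding Cyp6a15Psi. A threshold of 0.01, a 2-fold minimum and adjustment over single-gene rows each left between 4 and 6 calls. So did the addition of shared rows or of P450 genes under other names. Apart from the limit of 5 CPM, the share of all rows called under these settings is not given. The counts are therefore not read as a result about the family. The median log2 fold change of -0.13 was -0.25 in rows of at least 5 CPM, -0.24 with shared rows added and -0.25 without the called rows, the last chosen after the data were seen. It kept its sign in all 6 alternatives tried. Subtracting the median of all rows in the same abundance band, which gave -0.22, was also not planned beforehand.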
